A study of Mus musculus with 4 samples.

Results

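The suppressors of cytokine signalling (SOCS family) were examined in mouse bone marrow-derived dendritic cells treated with bacterial lipopolysaccharide (LPS) and LA. The family was taken as 8 genes, Socs1 to Socs7 and Cish, and their probes were found through the transcript identifiers on the array. All 8 genes of the 23451 with a value were represented, by 11 probes, and each of the 11 was well above background on all 4 arrays. Socs2, Socs4 and Socs6 had 2 probes each and the other 5 genes had 1.

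There were 4 groups of 1 single-colour array each. Cells received LPS (100 ng/ml) with LA (20 mM), LPS alone, LA alone or no stimulation (medium), and the treatments lasted 4 h. All cells were wild-type and came from femur marrow of male C57BL/6J mice, kept until day 6 in MEM containing GM-CSF at 10 ng/ml and 10% FBS. LA is named L-(+)-LA in the treatment label, and lactate is the word in the title. The number of animals, their age, the pH and the treatment time of the medium cells are not given in the labels. With 1 array per group there was no replicate check, so each difference below is between 2 arrays and has no p-value. In bulk RNA of this kind, fewer cells of a type and less RNA per cell cannot be told apart.

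SOCS proteins are a negative feedback on cytokine receptors. Receptors signal through Janus kinases (JAKs) that phosphorylate STAT transcription factors, STATs switch on SOCS genes, and SOCS proteins then bind the receptor or the JAK through an SH2 domain. Their SOCS box recruits elongins and cullin 5, which ubiquitinate the bound partner. SOCS1 and SOCS3 also carry a short region that blocks the kinase itself, and both are known to restrain dendritic cells and macrophages exposed to bacterial products.

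Promoter sequences are shown for Socs1, Socs3 and Cish, the 3 members whose levels differed most between arrays. Each runs 5′ to 3′ over the 250 bases before the start that the RefSeq promoter table gives (GRCm38.p6), and positions are counted from that start. The window of Socs1 is chr16:10785537-10785786 on the minus strand, that of Socs3 chr11:117969367-117969616 on the minus strand and that of Cish chr9:107296409-107296658 on the plus strand. Capitals mark matches to a STAT motif (TTCNNNGAA) or to an interferon response motif, the ISRE (GAAA, any 2 bases, GAAA), searched on both strands.
Socs1: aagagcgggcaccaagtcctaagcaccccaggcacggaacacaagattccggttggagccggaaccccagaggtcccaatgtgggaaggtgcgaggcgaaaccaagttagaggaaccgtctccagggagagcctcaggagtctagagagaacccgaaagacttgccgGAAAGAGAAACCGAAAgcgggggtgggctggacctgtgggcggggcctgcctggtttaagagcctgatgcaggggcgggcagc
Socs3: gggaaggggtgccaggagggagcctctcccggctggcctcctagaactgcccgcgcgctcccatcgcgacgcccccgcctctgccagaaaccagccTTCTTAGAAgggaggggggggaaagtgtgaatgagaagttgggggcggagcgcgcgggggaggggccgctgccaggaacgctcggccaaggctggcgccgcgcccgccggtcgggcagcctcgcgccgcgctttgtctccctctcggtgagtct
Cish: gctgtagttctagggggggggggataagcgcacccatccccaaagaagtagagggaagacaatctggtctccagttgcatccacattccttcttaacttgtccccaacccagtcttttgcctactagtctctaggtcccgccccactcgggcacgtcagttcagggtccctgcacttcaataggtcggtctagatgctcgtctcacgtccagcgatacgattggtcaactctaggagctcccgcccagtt
Socs3 had 1 STAT match, from 154 to 146 bases before the start, a motif held by 7.02% of 32851 promoter windows of that length. Socs1 had 2 ISRE matches that overlap each other, from 83 to 74 and from 77 to 68 bases before the start, against 2.98% of windows with any. The gene models span chr16:10783808-10785536 for Socs1 and chr9:107296659-107302784 for Cish. That of Socs3 spans chr11:117966079-117970336 on the minus strand and begins upstream of the start used here, so the window of Socs3 lies inside the gene model and not before its outer end. The window of Cish had neither motif, nor did that of Socs4, the other member with a promoter entry. An NF-kB motif (3.9% of windows) and the cAMP response element TGACGTCA (1.55%) matched none of these 4 windows. A match is a run of letters and not a shown binding site, and no match says only that the letters are not in the window.

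Levels are given as log2 of the deposited processed intensity over the 75th percentile of the array, in the order LPS with LA, LPS, LA and medium. Levels of different genes were not set against each other, since each comes from its own probe. A difference of at least 1 log2 unit, or 2-fold, was counted. The 4 arrays lay on 1 slide with 1 scan time, and 56.5 to 64.1% of the 59305 non-control spots were well above background. The error between spots was read from 300 probes printed 10 times on each array. Their median SD was 0.051 to 0.054 log2 units, but 0.30 to 0.33 for the 3 to 8 of them with intensities of 10 to 30, 0.15 to 0.20 for the 4 or 5 between 30 and 100, and 0.077 to 0.11 for the 7 to 9 between 100 and 300. These values leave out labelling, culture and animal, so precision is limited by there being 4 arrays.

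The culture was checked against cell type markers. Of 19 dendritic cell markers 17 were well above background on all 4 arrays, while Clec9a was not on the LPS array and Xcr1, a marker of the cross-presenting subset, on none. All 15 neutrophil and precursor markers and 14 of 15 macrophage and monocyte markers were also above background on all 4. The summed signal of the neutrophil list was 949, 795, 917 and 711 times the 75th percentile with LPS and LA, LPS, LA and in medium. That of the mast cell, basophil and eosinophil list was 136, 116, 128 and 71.9, and that of the dendritic cell list 221, 367, 234 and 303. The summed signals of the neutrophil list and the mast cell list were both lowest in medium, as were Socs1, Socs3, Cish and Socs2 below. S100a9 and Csf3r, at levels of 8.19 and 8.24 with LPS, weigh most in the neutrophil sum. The median difference between LPS and medium was -0.11 for the neutrophil list and 0.27 for the mast cell list. Most neutrophil markers were thus not higher with LPS than in medium, unlike the sum. The part of these cells in the SOCS levels was not tested. The macrophage list summed to 172, 237, 182 and 211. Lymphocyte and NK markers summed to 7.83 to 8.98, with Ms4a1 and Ncr1 above background on none, erythroid markers to 1.74 to 1.80, and fibroblast, stromal and endothelial markers to 3.01 to 5.71, with Cdh5 and Lum on none.

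LPS was set against medium to describe how the family answers a bacterial signal. Socs3, Socs1 and Cish were higher with LPS and Socs5 was lower, while Socs2, Socs4, Socs6 and Socs7 lay less than 2-fold apart. Of 8 members 3 were at least 2-fold higher, against 8.14% of 13592 genes measured, or well above background, on both arrays, and 1 was at least 2-fold lower, against 7.5%. The median difference of the members was 0.77, and that of all measured genes 0.00.

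Socs3, which binds the shared receptor gp130 and limits STAT3 signalling, lay at 0.50, 3.85, 0.18 and -1.19 with LPS and LA, LPS, LA and in medium. Its processed intensities were 206, 2511, 180 and 78.3. The LPS array was the high one and the medium array the low one, with both LA arrays between them. With LPS it was 33.0-fold higher than in medium (log2 difference 5.04), and 18 of the 13592 genes had a larger difference.

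Socs1, the main brake on interferon receptor signalling, had levels of -1.76, 1.38, -1.86 and -3.37 in the same order. It was 26.9-fold higher with LPS than in medium (4.75), and 21 genes had a larger difference. Its intensity in medium was 17.3, against 43.0 with LPS and LA, 452 with LPS and 43.5 with LA, so its medium spot lay in the range where repeated spots varied most. With normexp background correction, which adds an offset of 50 and so compresses dim probes, this difference was 2.69, and that of Socs3 4.35.

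Cish, a STAT5 target that acts on receptors such as those of GM-CSF and interleukin-2, lay at 1.44, 2.73, 1.49 and 0.09. It was 6.24-fold higher with LPS than in medium (2.64), with 159 genes above it. All 4 groups were grown with GM-CSF, whose receptor signals through STAT5. As for Socs1 and Socs3, LPS was the high array, medium the low one and both LA arrays lay close together between them.

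Socs5, a member linked to epidermal growth factor and interleukin-4 receptors, was the only member at least 2-fold lower with LPS. Its levels were -0.93, -1.47, -0.09 and -0.37 with LPS and LA, LPS, LA and in medium, so both LPS arrays were below both arrays without LPS. The difference between LPS and medium was -1.10, close to the threshold, and -0.63 with normexp.

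**Figure D1:**
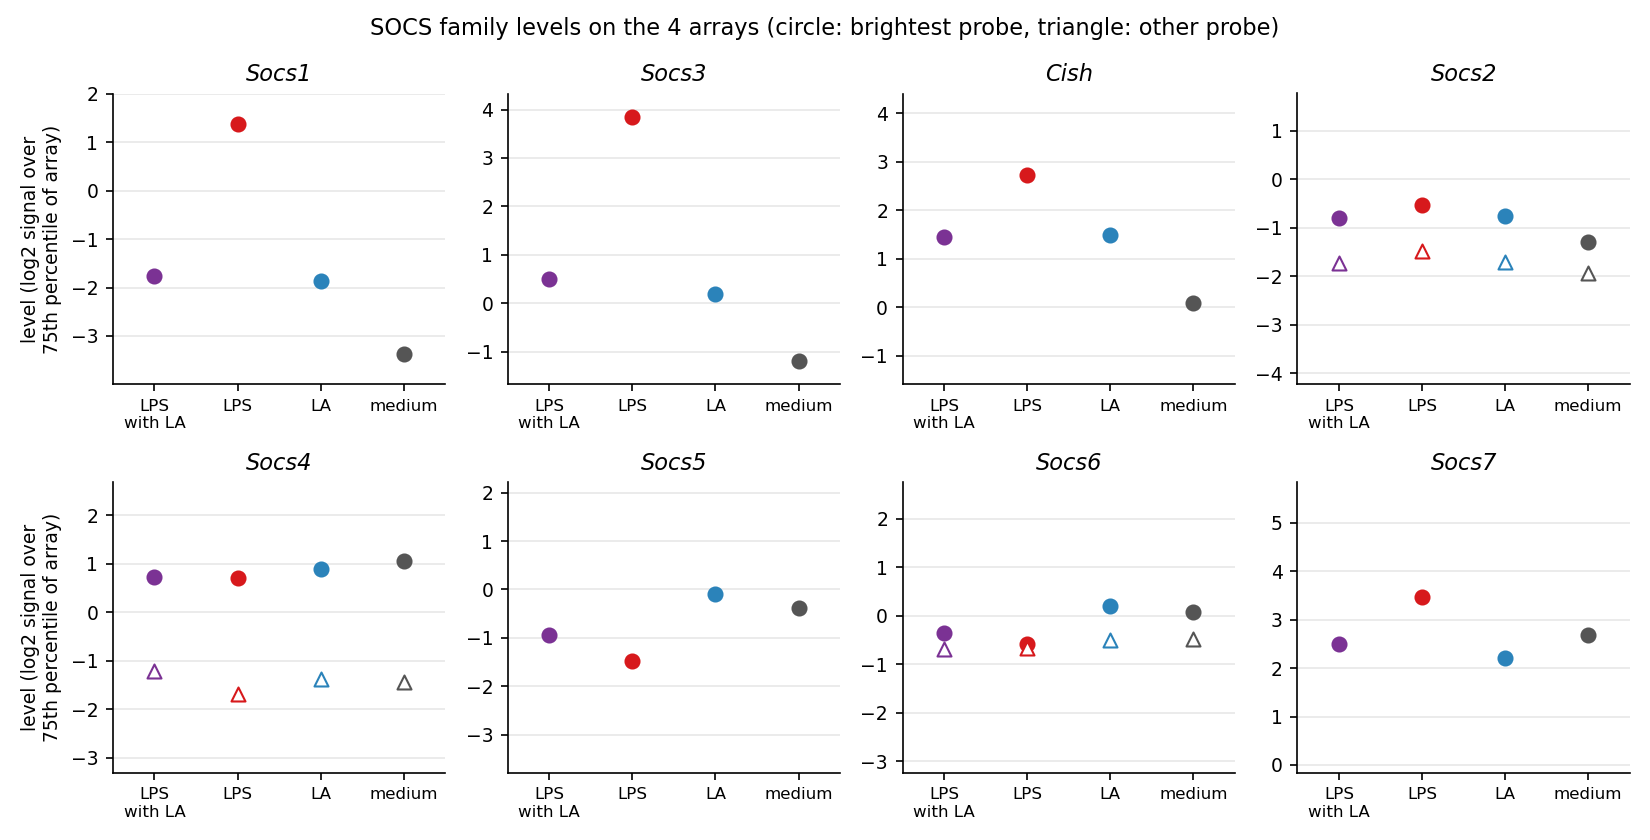
Level of each SOCS family gene (y axis, log2 signal over the 75th percentile of the array, a span of 6 log2 units in every panel) on the LPS with LA, LPS, LA and medium arrays (x axis). Circles are the brightest probe and triangles the other probe, 1 array per point. Socs1, Socs3 and Cish peak on the LPS array, are lowest in medium and lie between on both LA arrays.

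The remaining members lay within 2-fold of medium. Socs2, a brake on growth hormone signalling, lay at -0.81, -0.53, -0.77 and -1.29, and its other probe at -1.73, -1.48, -1.72 and -1.93. Both probes had the LPS array highest and medium lowest, with differences of 0.77 and 0.45 between LPS and medium. Socs7, which binds the adaptor NCK and insulin receptor substrates, had levels of 2.49, 3.46, 2.22 and 2.68 and a difference of 0.78. Its LPS array alone stood above the others.

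Socs4, a regulator of epidermal growth factor receptor turnover, lay at 0.73, 0.71, 0.90 and 1.07, with a difference of -0.35 between LPS and medium and of -0.25 with its other probe. Socs6, which binds the receptor kinase KIT, lay at -0.35, -0.59, 0.20 and 0.07. Its difference between LPS and medium was -0.66 with the brighter probe and -0.18 with the other, so its probes disagree on the size. Over all genes with several probes, differences between LPS and medium had a median SD of 0.23 between probes of a gene.

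LA was set against medium to describe its action without LPS. Socs1, Cish and Socs3 were the members at least 2-fold apart, all of them higher with LA. Socs1 was 2.85-fold higher with LA than in medium (1.51), Cish 2.65-fold (1.40) and Socs3 2.59-fold (1.37). These 3 of 8 members compare with 3.12% of 14554 measured genes at least 2-fold higher with LA, and 0 members were lower, against 3.33%. There were 109 genes with a larger difference than Socs1, 147 than Cish and 158 than Socs3.

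The other 5 members lay between -0.46 (Socs7) and 0.53 (Socs2), where the second probe of Socs2 gave 0.22. Socs5 lay at 0.28, the probes of Socs6 at 0.13 and -0.02 and those of Socs4 at -0.17 and 0.06. The median of the members was 0.40, that of all genes 0.02. Each of the 3 differences exceeded the SD between spots of like intensity, but with normexp they were 0.55 for Socs1, 0.96 for Socs3 and 1.17 for Cish, so that 1 of the 3 counted. LA and LPS were compared with the same medium array, so a low value of Socs1 there enters both comparisons.

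**Figure D2:**
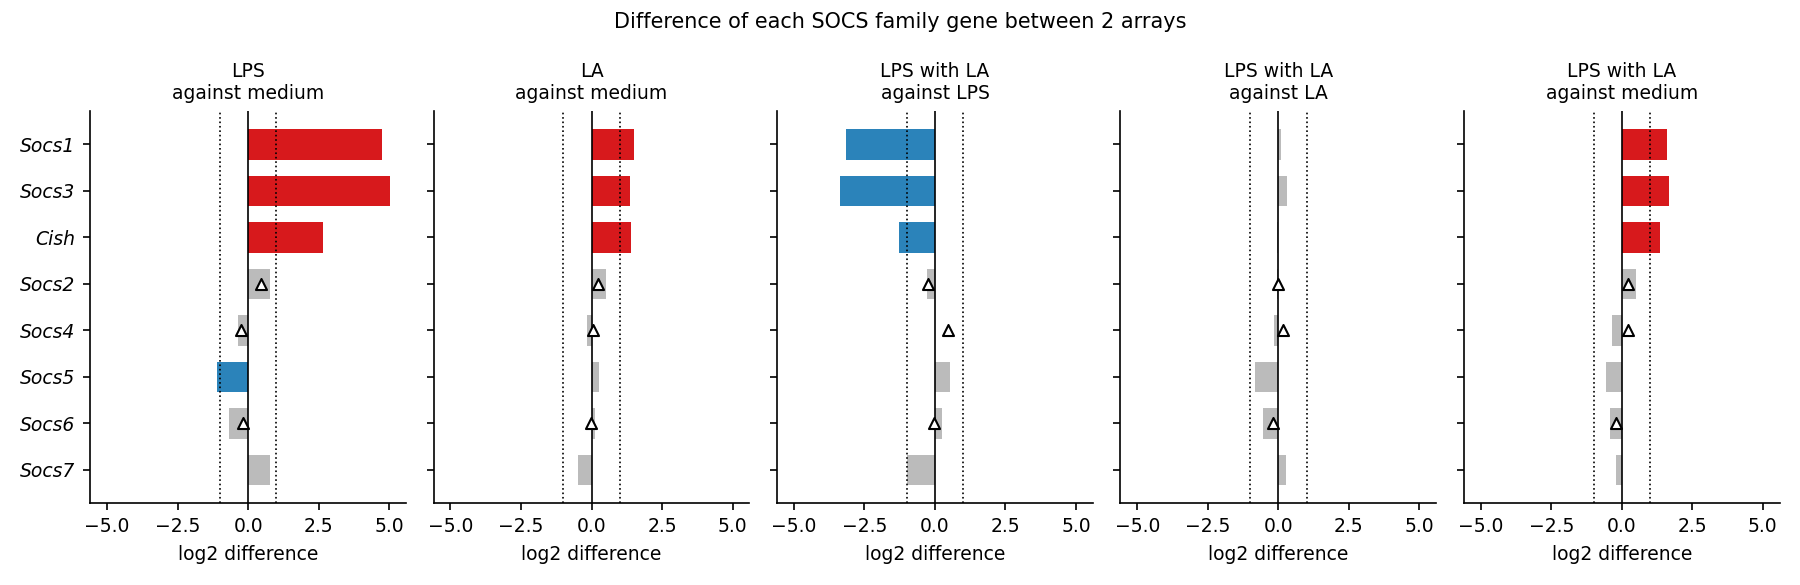
Log2 difference of each SOCS family gene (rows) in 5 comparisons of 2 arrays (panels, x axis in log2 units, dotted lines at 2-fold). Bars are the brightest probe, coloured where at least 2-fold higher (red) or lower (blue), and triangles are the other probe. Socs1, Socs3 and Cish are the 3 higher members with LPS, with LA and with both against medium, and the 3 lower members with LPS and LA against LPS.

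LPS with LA was set against LPS to see what LA does to the LPS response. Socs3 was 10.2-fold lower with LPS and LA than with LPS (-3.35), Socs1 8.80-fold lower (-3.14) and Cish 2.44-fold lower (-1.29). Socs7 lay just short of the threshold at -0.97, 1.96-fold lower. In all, 3 of 8 members were at least 2-fold lower, against 12.5% of 13631 measured genes, and 0 were higher, against 11.5%. There were 131 genes with a lower difference than Socs3, 154 than Socs1 and 1152 than Cish. Cish lay at -0.87 in the authors' deposited table and at -0.996 with quantile normalization, both short of 2-fold. Relative to the median of all genes under each alternative it lay between -1.30 and -1.08. Cell type markers also differed between these 2 arrays. With LPS and LA 8 of 15 neutrophil markers were at least 2-fold higher and 10 of 17 dendritic cell markers at least 2-fold lower. Of these 10, Ccr7, Cd83, Ccl22 and Ccl17 were at least 2-fold higher with LPS than in medium, and the rest were not. The part of such markers in the SOCS differences was not tested.

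Socs5 lay on the other side at 0.54, with Socs6 at 0.24 and -0.02 for its probes and Socs4 at 0.01 and 0.47. Socs2 lay at -0.28 and -0.25. This comparison and that of LPS against medium share the single LPS array with opposite sign, so a high or low value on that array alone gives opposite differences in them, and no relation is read between them.

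LPS with LA was set against LA to see what LPS adds in the presence of LA. None of the 8 members was at least 2-fold apart in these 2 arrays, where 0.906% of 14903 measured genes were higher and 1.5% lower. Socs1 lay at 0.10 and Cish at -0.05, both within the SD between spots of like intensity, and Socs3 at 0.31, above that SD. Without LA the LPS differences of the same genes were 4.75, 2.64 and 5.04. The largest difference of a member was that of Socs5 at -0.84, next to -1.10 without LA, and Socs6 lay at -0.55, next to -0.66.

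Against medium, LPS with LA left Socs3 3.22-fold (1.69), Socs1 3.06-fold (1.61) and Cish 2.55-fold higher (1.35). These 3 of 8 compare with 3.0% of 14519 genes higher and 3.98% lower. With normexp 2 of the 3 counted and Socs1 lay at 0.61, its dim medium spot being the reference here too. For each of these 3 genes the order of the levels was LPS first, then both LA arrays, then medium. The LPS with LA and LA arrays are neighbours in that order that do not differ beyond the SD between spots for Socs1 and Cish.

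The LA difference thus had opposite signs without and with LPS for these 3 genes. The difference with LPS minus that without was -4.73 for Socs3, -4.65 for Socs1 and -2.69 for Cish, and between -0.81 (Socs2) and 0.26 (Socs5) for the other 5 members. By arithmetic it equals the LPS difference with LA minus that without LA. For Socs3, Socs1 and Cish these were 0.31, 0.10 and -0.05, and 5.04, 4.75 and 2.64. The value thus largely restates the LPS difference against medium with its sign turned. Values of -1 or less were found in these 3 of 8 members and in 9.7% of 13368 genes well above background on all arrays, and values of 1 or more in 8.97% of the genes and 0 members. Of these genes 17 lay lower than Socs3, 19 lower than Socs1 and 140 lower than Cish.

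The comparisons of LA with medium and of LPS with LA against LPS share no array. Among the 13368 genes, 333 were at least 2-fold higher with LA than in medium and 1625 at least 2-fold lower with LPS and LA than with LPS. Both held for 16 genes. These are 4.80% of the first set, where 12.2% of all genes were lower with LPS and LA. They are 0.985% of the second set, where 2.49% of all genes were higher with LA. The overlap was thus smaller than either share, and 3 of the 16 were Socs1, Socs3 and Cish. With normexp the 16 became 2, of which 1 was a member (Cish), and in the authors' deposited table there were 12, of which 2 were members. With no filter on dim probes 219 of 23451 genes met both, again with 3 members.

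**Figure D3:**
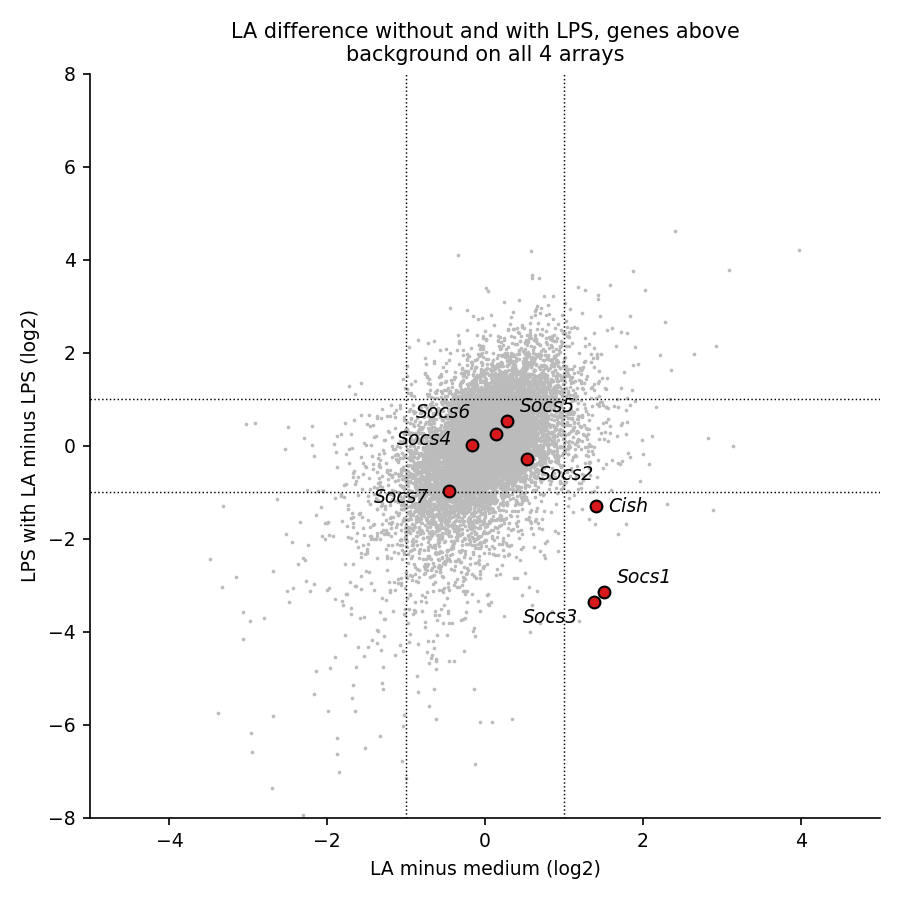
Log2 difference of LA minus medium (x axis) against LPS with LA minus LPS (y axis) for genes well above background on all 4 arrays (grey) and the 8 SOCS family genes (red), with dotted lines at 2-fold. Socs1, Socs3 and Cish lie at the lower right, higher with LA alone and lower with LA added to LPS, while the other 5 lie within 2-fold on both axes.

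Genes with the most similar pattern were sought by the root mean square distance between levels on the 4 arrays, each centred on its own mean, among 12253 genes. The nearest to Socs1 was Socs3 and the nearest to Socs3 was Socs1, at a distance of 0.16 log2 units. Both were followed by the chemokine gene Ccl3 (0.29 from each) and by Csrnp1, which encodes a nuclear protein (0.33 from Socs1 and 0.37 from Socs3). Csrnp1 had levels of -1.10, 2.67, -0.62 and -1.82 and is among the 16 genes above.

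Nearest to Cish were Nod1, a sensor of bacterial peptidoglycan (0.14), the DNA polymerase gene Poll and Iqsec2 (0.16 each). Nod1 lay at 0.30, 1.41, 0.04 and -1.03 and is also among the 16. Socs2 lay nearest to Il5ra, the interleukin-5 receptor chain of eosinophils and a gene of the mast cell, basophil and eosinophil list, at 0.0074. Il5ra had levels of -0.18, 0.11, -0.13 and -0.66. Next to Socs2 after it were Sh3gl1 (0.029) and Rnf224 (0.035), which are on none of the marker lists. Such distances rest on 4 arrays, and for genes that vary little many lie close. Socs4 was nearest to Zfp597 (0.009), Socs5 to Eps8l1 (0.040), Socs6 to Mtif3 (0.018) and Socs7 to Psg16 (0.020).

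The cytokines and receptors that signal through JAKs were read beside the family. List counts below stand beside the shares of all measured genes at least 2-fold higher and lower. These were 8.14% and 7.5% for LPS against medium, and 3.12% and 3.33% for LA against medium. For LPS with LA against LPS they were 11.5% and 12.5%. Of 28 ligand genes, 6 of 13 measured were at least 2-fold higher with LPS than in medium and 0 lower, led by Il6 (6.31) and Il12b (5.86). Bounds placed 6 more higher and 1 lower. A bound is given where a probe was above background on 1 array only, and is the least fold that its signal allows. Ifnb1, encoding interferon beta, was at least 219.7-fold higher with LPS by this measure. For Il10, an inducer of Socs3, the bound was 19.3-fold. With LPS and LA against LPS, 7 of 14 ligands were lower and 0 higher, with 5 more lower by bounds, where the bound was 243-fold for Ifnb1 and 21.3-fold for Il10. Neither was above background with LA, with LPS and LA or in medium.

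With LA alone 1 of 13 ligands was at least 2-fold higher than in medium and 2 were lower. The higher one was Osm, encoding oncostatin M, a gp130 cytokine and STAT5 target. Its levels were 3.22, 2.35, 3.28 and 1.44, and its differences were 1.84 for LA against medium and 0.91 for LPS against medium. Unlike Socs1, Socs3 and Cish, it lay highest on the LA arrays. Il6 (-1.06) and Il12b (-1.01) were lower with LA. By bounds Il11, another gp130 cytokine, was at least 2.93-fold higher and Epo at least 6.90-fold lower.

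Of 31 measured receptor genes, LPS had 0 higher by 2-fold, against 8.14% of all genes, and 3 lower, against 7.5%. The 3 lower than in medium were Il6ra (-3.47), Ifngr1 (-1.65) and Il6st, which encodes gp130 (-1.61). With LA, Il6st was the only measured one at least 2-fold apart (-1.24), and its levels were 1.57, 1.24, 1.61 and 2.85, with medium alone high. By bounds Il12rb1 was at least 2.56-fold higher with LPS and Lifr at least 2.83-fold higher with LA, each against medium. Adding LA to LPS left 4 of 32 higher than with LPS alone, led by Il6ra (4.18) and Ifngr1 (1.98), and 3 lower, led by Il13ra1 (-1.85) and Ifnar2 (-1.23). Both counts were near the shares of all genes (11.5% higher and 12.5% lower).

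Of the 11 JAK and STAT genes, 4 were higher with LPS than in medium and 0 lower, led by Stat2 (2.18) and Jak2 (2.05). With LA 0 were higher and 1 was lower (Stat2, -1.02). With LPS and LA against LPS 5 were lower and 0 higher, with Stat2 at -3.07 and Jak2 at -2.81.

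Counts of other brakes on the pathway were near the share of all genes with LPS (8.14% higher and 7.5% lower). Of 18 measured, 1 was higher with LPS than in medium, Usp18, an inhibitor of interferon receptor signalling (3.68), and 2 were lower, Trim27 (-1.42) and the JAK2 inhibitor gene Sh2b3 (-1.36). With LA, Sh2b3 was higher (1.03) and Bcl6, a transcriptional repressor, lower (-1.07). Between LPS with LA and LPS, 4 were higher, led by Sh2b3 (2.36) and Dusp3 (1.11), and 5 lower, led by Usp18 (-4.19) and Bcl6 (-1.82). Usp18 shared the high LPS array of Socs1 and Socs3, but lay at -0.65 with LA against medium.

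A list around the ubiquitin machinery that SOCS boxes recruit was read next, which also holds Cul2, the gene of another cullin. Of 10 measured, 0 were higher with LPS than in medium and 1 was lower, the scaffold gene Cul5 (-1.42). With LA 1 was lower, Arih2, a ligase partner of cullin 5 (-1.37). Between LPS with LA and LPS, 3 were lower, Cul2 (-1.58), Ube2f (-1.36) and the elongin gene Eloc (-1.32), and 0 higher. Among other SOCS box genes, 2 of 16 measured were higher with LPS than in medium, Asb13 (1.14) and Asb11 (1.03), and 1 was lower, Rab40c (-2.39). These counts were near the shares of all genes (8.14% higher and 7.5% lower). Asb3 was higher by its bound, at least 14.0-fold. With LA 0 of 18 were 2-fold apart, and with LPS and LA against LPS Rab40c (2.76) and Asb1 (1.13) were higher and Asb3 lower of 17, with Asb2 at least 2.15-fold higher by its bound.

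A list of early genes taken as STAT-induced had 8 of 17 measured higher with LPS than in medium, led by Ccnd2 (4.04) and Tnfaip3 (3.65). Of the same list 0 were lower. Whether STATs acted on these genes here was not tested. Pim2, a survival kinase gene, was at least 3.12-fold higher by its bound, and at least 3.45-fold lower with LPS and LA than with LPS. With LA 3 were higher, Fos (3.10), Myc (1.94) and Osm, and Tnfaip3 was lower (-2.68). LPS with LA had 8 lower than LPS, led by Tnfaip3 (-5.80) and Ccnd2 (-3.81), and 3 higher, led by Fos (3.77) and Myc (1.76). Median differences of this list were 0.91, 0.24 and -0.53 in these comparisons. In the comparison of LPS with LA against LA, Il12a (1.58) was higher and Il11 (-1.27) lower of 15 ligands, and Asb13 (1.32) was higher of 19 other SOCS box genes. Of the other lists 0 genes measured were 2-fold apart, beside 0.906% of all genes higher and 1.5% lower, so that counts of 0 in lists of this size say little.

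**Figure D4:**
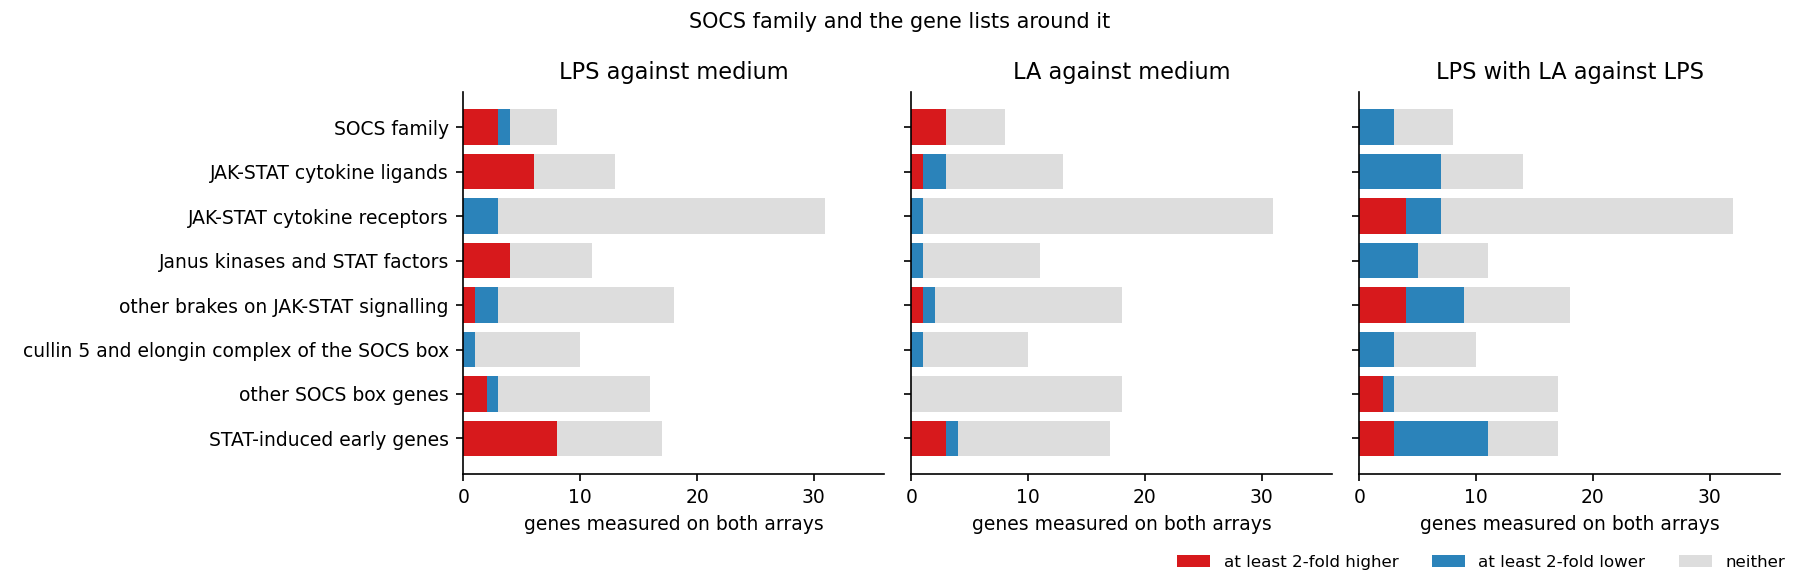
Number of genes measured on both arrays (x axis) that were at least 2-fold higher (red), at least 2-fold lower (blue) or neither (grey) in the SOCS family and 7 gene lists around it (rows), in 3 comparisons (panels). With LA against medium, where 3.12% of all genes are higher, the SOCS family has 3 of 8 higher, the STAT-induced list 3 of 17, the ligands 1 of 13, the other brakes 1 of 18 and the remaining lists 0.

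**Figure D5:**
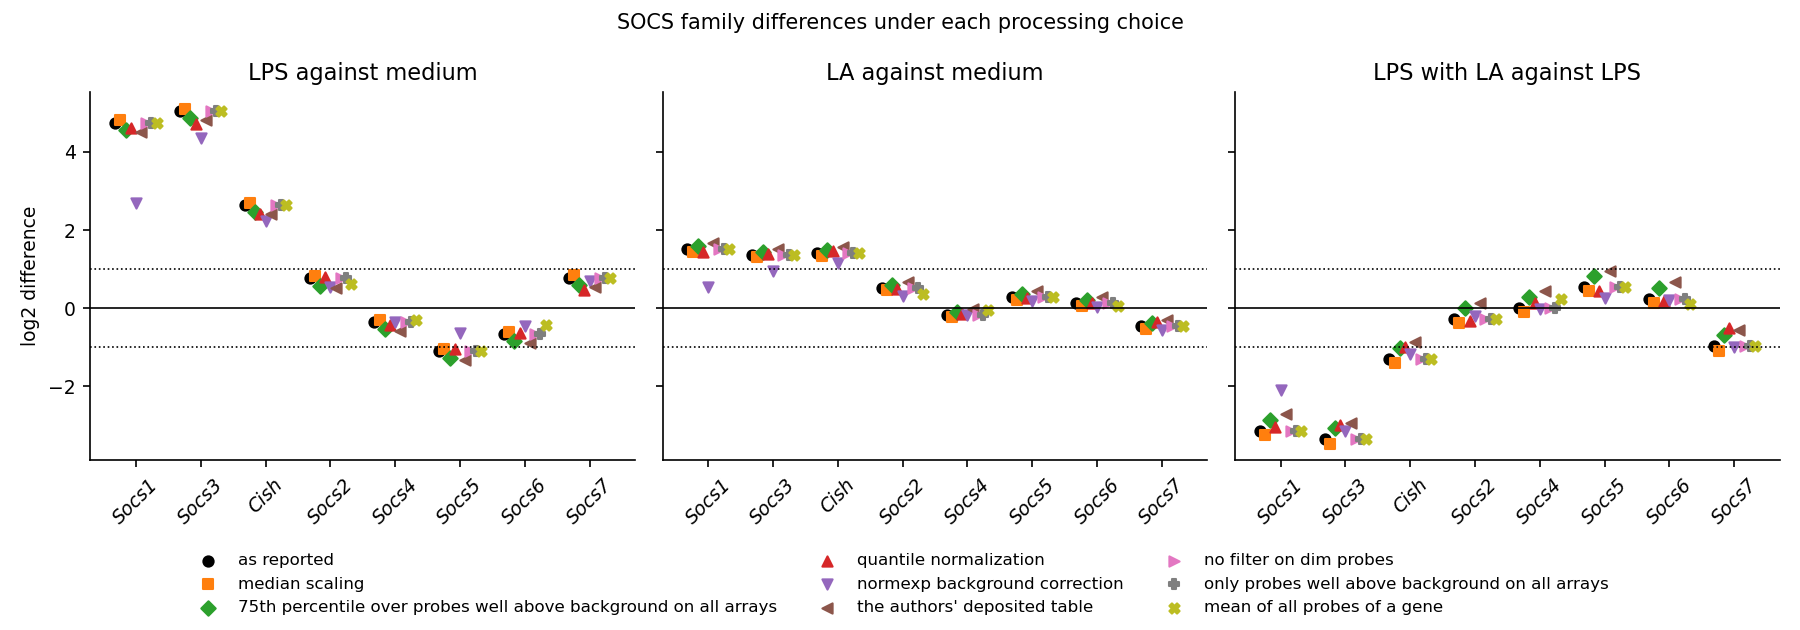
Log2 difference (y axis, dotted lines at 2-fold) of each SOCS family gene (x axis) in 3 comparisons (panels), as reported (black) and under 8 other processing choices (colours). With normexp background correction Socs1 lies at 2.69 with LPS and at 0.55 with LA, each against medium, and the choices other than normexp keep Socs1, Socs3 and Cish above 2-fold in these 2 panels. For LPS with LA against LPS, Cish falls short of 2-fold in the authors' deposited table (-0.87) and with quantile normalization (-0.996).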

How the data were processed

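RNA was labelled with Cy3 and hybridised to Agilent arrays of 62976 spots, 1 array for each of 4 groups. The intensity used is the deposited processed signal, a linear value after background subtraction that is not scaled across arrays, from Feature Extraction 12.0.3.1 per the file headers (the submitters' processing notes name 11.5.1.1). The authors' deposited table of 31529 intensities equals that signal times 1 factor per array. It is linear and not centred.

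Control spots and outlier spots were left out, and 0 spots were saturated. Of 56605 probes 33767 matched 1 RefSeq symbol (GRCm38.p6) by transcript identifier, and 22838 matched none. The brightest probe stood for a gene. Alternatives were median scaling, another percentile set, quantile normalization and normexp (limma 3.58.1, R 4.3.3, on the median spot signal), the dim-probe filter, all probes averaged and the authors' table. Python 3.11.15, numpy 2.4.6 and pandas 2.3.3 were used. The percentile scaling and the averaging of spots were tested on simulated data in which only brighter probes were changed. The choice of probe for a gene, the bounds and the alternatives were not tested in this way.

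The members, lists and rules were chosen with earlier results of these data known. Beside the members, the genes named are those nearest in pattern and the 2 highest and 2 lowest measured genes of a list in a comparison. The 3 nearest are named for Socs1, Socs2, Socs3 and Cish, and only the nearest for the other members. Genes named by a bound, and the other genes named where a count was 5 or fewer, were chosen after their values were seen, as were the further values given for Osm, Il6st, Sh2b3 and Usp18.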

Additional observations from a re-analysis of the deposited data

Results flagged for a closer look

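Differences of LA without LPS and with LPS pointed opposite ways in 3 members, each by at least 2-fold. The LA difference with LPS minus that without LPS was -4.65 for Socs1, -4.73 for Socs3 and -2.69 for Cish. Each rests on 1 array per group, and the difference between the 2 settings was not tested. These values largely restate the LPS differences against medium with the sign turned, so they are not a separate result.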

How the results depend on the processing

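Over 8 alternatives, the sign turned in 0 of 128 recomputed values of the member differences at least 2-fold apart and in 4 of 256 of the smaller ones, among them Socs2 for LPS with LA against LPS (0.14 in the authors' table). Of all 384 values 345 stayed within the median SD between probes of a gene. Among the 8 alternatives, the 2 on the dim-probe filter could not move a member value or count. All 11 member probes were well above background on every array. Averaging probes could likewise not move the 5 members with 1 probe. Of 48 recomputed counts of members 2-fold apart 47 stayed within 1.5 times, a wide rule by which 3 may become 2 or 4. The exception was LA against medium, where 3 members became 1 (Cish) with normexp, whose offset of 50 compresses dim probes. Within the rule, normexp also took 4 members to 3 for LPS against medium and 3 to 2 for LPS with LA against medium. With LPS and LA against LPS the 3 members became 4 with median scaling, which takes in Socs7 at -1.08, and 2 with quantile normalization and in the authors' table. In the authors' table the median of all genes shifted by -0.24 for LPS against medium, by 0.15 for LA against medium and by 0.43 for LPS with LA against LPS. With a percentile taken over the probes above background on every array it shifted by -0.19 in the first and 0.28 in the last of these. Relative to the median of all genes, Cish lay at -1.30 to -1.08, Socs1 at -3.15 to -2.12 and Socs3 at -3.37 to -3.08 under the alternatives.

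How many of the genes 2-fold apart were higher depended on the scaling. For LPS against medium the share was 52.1%, or 30.2% in the authors' table, 35.7% with that percentile and 68.3% with normexp. For LA against medium it was 48.4%, or 65.7%, 59.5% and 30.4% in the same order, and for LPS with LA against LPS 48.0%, or 76.7%, 67.9% and 36.6%. The genes 2-fold apart with normexp were 683 higher and 317 lower, 72 and 165, and 639 and 1109 in these 3 comparisons, as against 1107 and 1019, 454 and 484, and 1567 and 1698 as reported. In the authors' table they were 741 and 1716, 570 and 298, and 3043 and 923, and with no filter on dim probes 2111 and 2295, 1861 and 1423, and 2984 and 2732. With the other percentile they were 858 and 1545 for LPS against medium and 2475 and 1168 for LPS with LA against LPS. No paired analysis was possible because each group has 1 array. Signal over background limits Socs1 most, whose medium spot had an intensity of 17.3 where the lowest well above background was 11.9.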

Other observations

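The other 13 of the 16 genes that were at least 2-fold higher with LA than in medium and at least 2-fold lower with LPS and LA than with LPS were of mixed kinds. Named after their values were seen, they include Tnfsf8, which encodes the ligand of CD30 (1.79 for LA against medium and -1.68 for LPS with LA against LPS), and Arid5a, an RNA-binding protein that stabilises inflammatory transcripts (1.05 and -1.29). Dpp4, a peptidase on the surface of dendritic and T cells, lay at 1.22 and -1.36, and the monocyte attractant gene Ccl2 at 2.88 and -1.38. Csrnp1, at 1.20 and -3.78, was the one with a difference as low as those of Socs1 (-3.14) and Socs3 (-3.35) in the second comparison.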
